A study of Mus musculus with 12 samples.

Results

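The genes examined here encode the subunits of voltage-gated sodium, calcium and potassium channels and of HCN channels in the newborn mouse retina. They were chosen by name, with earlier results of these data known. Of 38720 genes listed in both tables of the series, 135 carry a symbol of the Scn, Cacna, Cacnb, Cacng, Kcn or Hcn families. RNA-seq was carried out at postnatal day 0 on retinal ganglion cells (RGCs), which were pulled from dissociated C57/BL6 retinas with magnetic beads against Thy-1 (CD90), and on the retinal cells left behind (non-RGCs). In mKO mice a Cre knock-in under Math5 (Math5-Cre) recombines both floxed copies of Ezh2 (flox/flox), the gene of the histone H3K27 methyltransferase, and the WT mice are labelled wild type. The labels name no Ezh2 allele for WT, and the study's methods give littermate Ezh2 flox/flox mice as controls unless stated otherwise, so the floxed status of WT is not settled here. Math5-Cre is active in only part of the RGCs and also in progenitors that give rise to other retinal cells. The study cites reports that these progenitors make up only a small share of the non-RGC lineages. Each genotype and fraction had 3 libraries from separate RNA extractions, and the number of animals pooled in each is not given in the sources used here.

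Voltage-gated sodium channels, built of a pore-forming alpha subunit (Scn1a to Scn11a) and accessory beta subunits (such as Scn2b and Scn3b), carry the upstroke of the action potential. Calcium channels (Cacna1 pores with Cacna2d, Cacnb and some Cacng accessory subunits) admit calcium for transmitter release and signalling, and potassium channels repolarise the membrane, set its resting potential and shape firing. RGCs are the spiking output neurons of the retina, while photoreceptors and many interneurons of the mature retina signal mainly by graded potentials. The rule also takes in genes that are relatives rather than voltage-gated pores, such as the inward rectifiers (Kcnj), the leak channels (Kcnk) and the AMPA receptor regulators among the Cacng genes.

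The deposited tables hold mean normalised reads per genotype, and the reads of each library were recovered from the digits of these means. Within a group, library A has the most reads and library C the fewest, and a letter links no library to a numbered label. The totals ran from 10600964 to 13014004 reads on genes in RGCs and from 7139633 to 12828281 in non-RGCs, the smallest being mKO non-RGC library C. Ezh2 itself was not called lower in mKO RGCs. Counted over the whole gene, of which the floxed allele loses some exons, it had 1189.9, 1206 and 1678 normalised reads in WT and 1354, 1476 and 1443 in mKO RGCs, with a log2 fold change of 0.09 ± 0.13 (here and for every log2 fold change, ± gives the SE of limma, with n = 3 per genotype; adjusted p = 0.64), so this count does not check the genotype labels. In non-RGCs it was not called either (log2 0.13 ± 0.15, adjusted p = 0.58). WT RGC library C stood apart from the other WT RGC libraries. The summed level of 10 progenitor markers was 2005 CPM (reads scaled to the library's total on genes) in it and 1196 and 1249 in libraries A and B, and 90 of 111 channel genes tested in RGCs (81.1%, against 39.5% of all genes tested) had their lowest WT value in it. The counts of genes called higher and lower in the main fit for RGCs are therefore given with and without that library. The counts by overlap of the genotypes and the results on GC content include it. Markers of blood (4 of 4 higher in mKO in each fraction) and pigment epithelium (3 of 4 tested higher in each) and of kidney (4 of 4 tested lower in RGCs, 3 of 3 in non-RGCs, at most 15.5 CPM in all) also moved with genotype, and RGC markers are given beside the results they touch.

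Most channel genes were detected. Only Kcnk16 had no read in any library, and 7 of the 135 genes (Kcna10, Kcne3, Kcnj15, Kcnk16, Kcnk18, Scn10a and Scn4b) never exceeded 3 reads. With a mean of at least 10 normalised reads in either genotype asked for a test, 111 genes entered the comparison in RGCs, 102 that in non-RGCs and 99 both. The 24 genes left out in RGCs and the 33 left out in non-RGCs were too low to compare at this depth. In neither fraction were Cacna1s, Cacng6, Kcna7, Kcna10, Kcne3, Kcne4, Kcng4, Kcnh3, Kcnj1, Kcnj13, Kcnj15, Kcnj16, Kcnk7, Kcnk15, Kcnk16, Kcnk18, Kcnmb1, Kcnmb3, Kcnq1, Scn4b and Scn10a tested.

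In WT retinas the channel genes lay mostly on the RGC side. The fractions themselves differed as labelled. The 12 RGC markers, Thy1 (the antigen of the beads) among them, summed to 2619 to 2766 CPM in WT RGCs and 513 to 539 in WT non-RGCs. Photoreceptor and progenitor markers were higher in non-RGCs, but WT RGCs still held 610 to 865 and 1196 to 2005 CPM of them. Microglia markers were higher in WT RGCs (149 to 205 CPM) than in WT non-RGCs (1.62 to 17.2 CPM). The RGC levels are thus those of a mixed fraction. Among the 114 genes with enough reads in at least 1 of the 4 groups, 80 (70.2%) had every WT RGC library above every WT non-RGC library in CPM, against 27.0% of all genes. By the same measure 14 (12.3%) were below, against 31.6% of all genes, and 20 overlapped. In mKO, 85 of the 114 (74.6%) were above and 15 (13.2%) were below, and the shares of all genes in mKO are not given here. The fractions were normalised in separate tables, so levels across them were scaled to each library's own total and were not tested. In whole-fraction RNA, fewer cells of a type cannot be told apart from less RNA per cell.

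Per kilobase of exon, the highest channel genes of WT RGCs were accessory subunits. Cacng4, which encodes an AMPA receptor regulator, led with 79.5 ± 1.87 RPKM (CPM per kilobase of exon, here and in what follows mean ± SD, n = 3), followed by Cacnb3, a calcium channel beta subunit, at 61.1 ± 1.69 RPKM. The RPKM range of Cacnb3 overlapped with that of the next, Cacng7 (59.2 ± 2.71 RPKM), which is also an AMPA receptor regulator. Of the 134 neighbouring pairs in the order of levels, 132 overlapped in this way, so the order below the first gene is loose.

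Most sodium channel genes were on the RGC side. Scn3a, the pore subunit typical of immature neurons, had the highest level of the pore genes in WT RGCs at 18.4 ± 4.36 RPKM, against 3.93 ± 0.24 in WT non-RGCs. Scn9a (Nav1.7), best known from pain-sensing neurons, was at 8.68 ± 1.80 RPKM in WT RGCs and 0.101 ± 0.027 in WT non-RGCs, an 86.1-fold difference in CPM, whose lower side rests on 10 to 19 reads in each WT non-RGC library. Scn1a differed 9.63-fold and Scn8a, the main pore subunit of mature axon initial segments, 2.16-fold. Of the beta subunits, Scn3b was the highest (39.98 ± 4.80 RPKM) and differed 7.96-fold between the WT fractions. Of these families 7 of 9 pore genes and 3 of 4 beta genes had all WT RGC libraries above all WT non-RGC libraries. Scn4a, the skeletal muscle subunit, lay the other way, at 0.371 ± 0.115 RPKM in WT RGCs and 0.927 ± 0.369 in WT non-RGCs. The gene of Nav1.2 is listed under the older symbol Scn2a1, which the name rule leaves out. It had 2569, 2877 and 1468 normalised reads in WT RGCs and 167, 152 and 101.1 in WT non-RGCs.

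Among the calcium channel pores, Cacna1h (a T-type channel, opened by small depolarisations) was the highest in both WT fractions, with 37.4 ± 1.84 RPKM in RGCs and 46.7 ± 4.31 in non-RGCs. Cacna1b and Cacna1a, the N-type and P/Q-type pores that feed calcium to transmitter release, were at 32.9 ± 7.87 and 20.99 ± 5.26 RPKM in WT RGCs, 7.22-fold and 4.16-fold above WT non-RGCs in CPM. The L-type pore Cacna1c and the R-type pore Cacna1e were low in WT RGCs, at 2.71 ± 0.89 and 1.10 ± 0.54 RPKM. Cacng5 showed a 20.1-fold difference toward RGCs. In contrast, Cacna2d4, the alpha2delta subunit of the photoreceptor calcium channel, had 4.47 ± 0.55 RPKM in WT RGCs and 10.6 ± 4.10 in WT non-RGCs.

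Of the 17 Kv1 to Kv4 pore genes 9 had all WT RGC libraries above all WT non-RGC libraries and 1 below, and of the 8 EAG, ERG and ELK genes 7 and 1. Kcnd2, the A-type Kv4.2 pore, differed 25.4-fold in CPM between the WT fractions, with 734 to 1409 reads in WT RGC libraries and 43 to 47 in WT non-RGC libraries. Kcnq3, a subunit of the M-current that damps repetitive firing, differed 10.5-fold. In several families the leading gene of WT RGCs was one of wide use in neurons. The A-type Kv3 gene Kcnc4 had 21.4 ± 5.41 RPKM in WT RGCs and 3.65 ± 0.21 in WT non-RGCs, Kcnh2, an ERG channel, 31.2 ± 1.34 RPKM in WT RGCs, and Kcnab2, a cytoplasmic Kv1 partner, 39.2 ± 4.56. Kcnn1 and Kcnn2, small-conductance channels opened by calcium, were at 14.8 ± 0.39 and 5.40 ± 1.05 RPKM, Kcnh4 at 16.1 ± 1.81, Kcnip1 (a Kv4 partner) at 11.7 ± 2.28 and Kcnk3, a leak channel closed by acid, at 10.3 ± 2.16. Lower levels were seen for Kcns2 (6.61 ± 1.15 RPKM), Kcnj9 (4.96 ± 1.14) and Kcnj12 (3.98 ± 1.05), all of them above WT non-RGCs in every library. The axonal Kv1 pores Kcna1 (5.56 ± 1.54 RPKM) and Kcna2 (1.94 ± 0.67) were modest, and Kcna1 overlapped between the fractions.

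On the non-RGC side were Kcnk1 (20.8 ± 5.07 RPKM in WT RGCs, 41.1 ± 9.55 in WT non-RGCs), Kcna5 (15.5 and 34.1 RPKM), the photoreceptor modifier subunit Kcnv2 (4.91 and 12.96 RPKM) and Kcnj10, the Kir4.1 channel of glia (3.28 and 9.49 RPKM). All 3 WT libraries of each fraction were apart for these 4 genes. Of the HCN genes, which carry the current activated by hyperpolarisation, Hcn2 (24.3 ± 2.81 RPKM), Hcn3 (30.6 ± 4.55) and Hcn4 (25.0 ± 2.96) were higher in WT RGCs than in WT non-RGCs (6.55 ± 0.098, 6.96 ± 1.59 and 16.3 ± 0.62 RPKM).

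**Figure D1:**
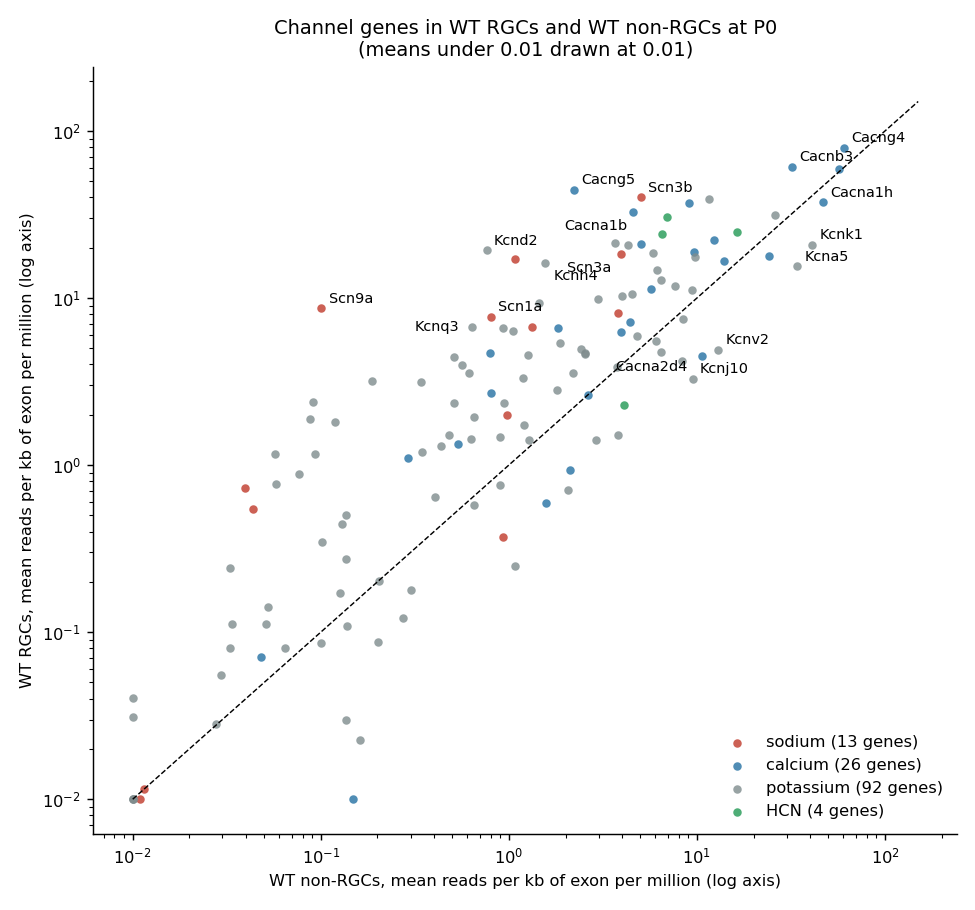
Mean level of each of the 135 channel genes in WT non-RGCs (x axis) and WT RGCs (y axis), in RPKM on log axes, means of 3 libraries, coloured by family, with the dashed line at equal levels and the lowest means drawn at the axis floor. Points above the line are higher in RGCs; Scn9a lies farthest from it among the labelled genes, at 8.68 against 0.101, and Kcnk1, Kcna5, Kcnv2 and Kcnj10 lie below it.

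The comparison of mKO with WT RGCs asks which channel genes differ when Ezh2 is targeted in the Math5 lineage. Kcnh7, Kcnb2, Kcnj3, Scn9a, Cacnb4, Kcnmb2, Kcnh8 and Kcnmb4 were higher in mKO RGCs, and Hcn2, Kcna3, Cacna2d4, Hcn4, Kcnj11 and Cacnb3 were among those lower, by 1.56-fold to 2.33-fold. A gene was called when the Benjamini-Hochberg adjusted p of limma was under 0.05 and the fold change was at least 1.5. By this rule 8 of 111 tested channel genes (7.21%) were higher, against 7.91% of all genes tested, and 7 (6.31%) were lower, against 5.51%. These shares are near those of all genes. The median log2 fold change of the channel genes was -0.05, against -0.0024 for all genes. Without WT RGC library C, 10 of 112 channel genes (8.93%) were higher, against 9.23% of all genes. In that fit 19 (17.0%) were lower, against 5.71% of all genes, a share no longer near that of all genes. The median log2 fold change was then -0.19, against -0.013 for all genes, and all 15 calls made with that library remained. Scaling by total reads moved the median of all genes by 0.12 (log2), gave 15 higher and 2 lower channel genes with a median of 0.07, lost the calls of Cacna2d4, Cacnb3, Hcn4, Kcna3 and Kcnj11, and made 84.1% of all calls higher, against 58.9% with the size factors. The 12 RGC markers summed to 2619 to 2766 CPM in WT RGCs and 2059 to 2130 in mKO RGCs, with 3 of 12 lower and none at 0. Among them Thy1, the antigen of the beads, had 2394, 2519 and 2208 normalised reads in WT and 1425, 1426 and 1422 in mKO RGCs (log2 -0.73 ± 0.06, adjusted p = 0.00065). The part of these markers in the differences of the channel genes was not tested. With no overlap between the libraries of the genotypes as the measure, 19 of the 111 were above in mKO (24.8% of all genes) and 22 were below (28.2% of all genes).

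The promoter windows of the 2 most raised and the 2 most lowered of the called genes with an entry in RefSeq are shown because their base composition is compared with that of the transcripts further on. Each window runs from 250 bases before to 50 after a RefSeq start on GRCm38.p6, read 5′ to 3′ on the strand of the gene, and capitals mark every CpG. They are Kcnh7 at chr2:63184238-63184537 (minus strand), Kcnj3 at chr2:55435720-55436019 (plus), Hcn2 at chr10:79716384-79716683 (plus) and Kcna3 at chr3:107035912-107036211 (plus).
Kcnh7: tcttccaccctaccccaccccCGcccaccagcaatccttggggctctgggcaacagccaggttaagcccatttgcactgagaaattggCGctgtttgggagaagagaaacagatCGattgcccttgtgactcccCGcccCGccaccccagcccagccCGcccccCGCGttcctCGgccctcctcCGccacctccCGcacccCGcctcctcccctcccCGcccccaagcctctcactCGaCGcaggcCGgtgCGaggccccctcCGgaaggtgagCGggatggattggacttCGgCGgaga
Kcnj3: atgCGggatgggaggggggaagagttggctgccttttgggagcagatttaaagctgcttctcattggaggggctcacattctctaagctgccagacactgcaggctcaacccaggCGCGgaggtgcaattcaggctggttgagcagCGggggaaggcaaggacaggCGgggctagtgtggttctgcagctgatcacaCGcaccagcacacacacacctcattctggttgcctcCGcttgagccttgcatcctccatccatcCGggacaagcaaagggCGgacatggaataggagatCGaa
Hcn2: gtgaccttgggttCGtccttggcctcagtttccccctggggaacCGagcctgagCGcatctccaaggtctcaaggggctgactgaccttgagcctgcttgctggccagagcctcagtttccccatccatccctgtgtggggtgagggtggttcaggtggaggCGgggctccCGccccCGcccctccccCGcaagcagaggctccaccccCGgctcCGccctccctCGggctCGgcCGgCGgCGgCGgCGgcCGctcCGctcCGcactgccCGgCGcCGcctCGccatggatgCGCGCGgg
Kcna3: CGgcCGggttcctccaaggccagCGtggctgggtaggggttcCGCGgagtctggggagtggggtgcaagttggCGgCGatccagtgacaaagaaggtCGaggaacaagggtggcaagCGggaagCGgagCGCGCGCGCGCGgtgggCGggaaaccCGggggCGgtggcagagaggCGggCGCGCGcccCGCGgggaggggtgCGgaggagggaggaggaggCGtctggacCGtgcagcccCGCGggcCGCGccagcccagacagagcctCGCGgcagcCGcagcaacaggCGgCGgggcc
The CpG dinucleotide (CG, the same on both strands) occurs 21 times in the window of Kcnh7, 10 times in that of Kcnj3, 26 times in that of Hcn2 and 37 times in that of Kcna3. A window was found for 98 of the 135 channel genes, with a median of 10 CpGs, against 7 over all 32817 windows of the same length. At least 1 CpG was present in 99.0% of the channel windows and 94.6% of all windows, and 20 or more in 36.7% and 26.5%. The windows of the 7 raised genes that had one held a median of 21 CpGs and those of the 4 lowered genes 28.5, so both kinds of gene included CpG-rich starts.

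Of the sodium channel pores 1 of 8 tested was called. Scn9a had 1585, 1536 and 1047 normalised reads in WT RGCs and 2338, 2341 and 2801 in mKO RGCs. All mKO libraries lay above all WT libraries for this gene at chr2:66480080-66634962 (minus strand, GENCODE M21 on GRCm38, as for the positions that follow), a 1.82-fold rise (log2 0.86 ± 0.16, adjusted p = 0.0069). Scn3a, with 3241, 3331 and 2068 normalised reads in WT and 3435, 3318 and 3718 in mKO, Scn8a and Scn1a were not called, and their WT values were pulled apart by library C. Scn1a had 1270.0, 1205 and 757 normalised reads in WT RGCs and 1512, 1405 and 1569 in mKO RGCs.

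Of the sodium channel beta subunits, Scn3b (2977, 2889.9 and 2334 normalised reads in WT RGCs, 2443, 2579.9 and 2592 in mKO RGCs) and Scn2b overlapped between the genotypes.

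None of the 9 calcium channel pores tested was called by limma in RGCs, with 3 at an unadjusted p under 0.05 (40 of all 111 tested channel genes were). Cacna1h, Cacna1g, Cacna2d2, Cacnb1, the AMPA receptor regulators Cacng3, Cacng4, Cacng7 and Cacng8, Hcn3, Kcnh2 and Kcnab2 were among 12 genes that were lower at an adjusted p under 0.05 but by less than 1.5-fold, with log2 fold changes from -0.58 to -0.36. Cacna2d1, the target of gabapentin, was the only gene that was higher in this way (log2 0.56). Cacna1c had 774, 930.4 and 455 normalised reads in WT and 689, 633 and 827 in mKO RGCs, which overlap. Just over the threshold lay Cacnb3, with 3142, 3014 and 3045 normalised reads in WT and 1831, 2039.6 and 2028 in mKO RGCs. The genotypes were far apart beside the spread of their libraries, and it fell 1.56-fold (log2 -0.64 ± 0.06, adjusted p = 0.00067). With the trends with GC and reads per base removed, as described further on, Cacnb3 was not called (log2 -0.02, adjusted p = 0.84 by limma).

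Cacnb4 (chr2:52428320-52676831, minus strand), another beta subunit that carries pore subunits to the membrane, moved the opposite way. It had 614, 582 and 373 normalised reads in WT and 907, 886 and 991 in mKO RGCs, a rise of 1.81-fold (log2 0.86 ± 0.18, adjusted p = 0.011). Cacna2d4 fell 1.61-fold, from 495, 497 and 599 to 348, 323 and 312 normalised reads (log2 -0.69 ± 0.10, adjusted p = 0.0026). Photoreceptors use this subunit in the mature retina. Their 10 markers summed to 610 to 865 CPM in WT RGCs and 560 to 602 in mKO RGCs, with 3 of 10 lower and none at 0, and their part in this difference was not tested.

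Hcn2 and Hcn4 were lower in mKO RGCs. Hcn2 had 1074, 998 and 843 normalised reads in WT and 558, 549.5 and 577 in mKO RGCs. Hcn4 (chr9:58823412-58863175, plus strand), the main pacemaker isoform of the heart, had 2061, 2046 and 1633 in WT and 1157, 1177 and 1246 in mKO. The genotypes were apart in every library for both genes, with falls of 1.72-fold for Hcn2 (log2 -0.78 ± 0.10, adjusted p = 0.0013) and 1.59-fold for Hcn4 (log2 -0.67 ± 0.10, adjusted p = 0.0024). Hcn3, with 1826, 1599 and 1341 normalised reads in WT and 1081, 1138 and 1165 in mKO RGCs, was also apart but by less than 1.5-fold (log2 -0.48 ± 0.11, adjusted p = 0.014).

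The widest log2 fold change among the called channel genes in RGCs was that of Kcnh7, an ERG-type potassium channel. It had 809, 835 and 406 normalised reads in WT RGCs and 1437, 1326 and 1837 in mKO RGCs, a 2.33-fold difference (log2 1.22 ± 0.28, adjusted p = 0.014). Without mKO RGC library C, the highest of the 6, the call was lost. Kcnh8, an ELK-type channel, rose 1.68-fold from 154, 151 and 179 to 237, 289 and 292 normalised reads (log2 0.75 ± 0.13, adjusted p = 0.0048), while the other 5 genes of the family that were tested were not called.

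Of the Kv1 to Kv4 pores 1 of 15 was higher and 1 was lower. Kcnb2 (chr1:15287254-15723750, plus strand), a delayed rectifier (Kv2.2), had 292, 309 and 237 normalised reads in WT and 530.5, 476 and 582 in mKO RGCs (1.90-fold, log2 0.92 ± 0.13, adjusted p = 0.0021). Kcna3, the Kv1.3 pore that is also abundant in lymphocytes and microglia, had 186, 198 and 149 in WT and 107, 103 and 117 in mKO (1.61-fold lower, log2 -0.69 ± 0.15, adjusted p = 0.011). For both genes the genotypes did not overlap. The 5 microglia markers summed to 149 to 205 CPM in WT RGCs and 87.6 to 193 in mKO RGCs, with none at 0, and their part in the fall of Kcna3 was not tested.

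Of 10 inward rectifiers tested 1 was higher and 1 was lower. Kcnj3, a subunit of the channels opened by G proteins, rose 1.89-fold from 93.2, 109 and 73.5 to 188, 172 and 159 normalised reads (log2 0.92 ± 0.18, adjusted p = 0.0069). Kcnj11, the pore of the ATP-sensitive channel, fell 1.58-fold from 169, 170.4 and 118 to 104, 84.8 and 96.0 (log2 -0.66 ± 0.19, adjusted p = 0.030). Kcnj11 was the least stable of the calls, being lost in 5 of 6 fits that left out a library and kept without WT library C.

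Both accessory beta subunits of the BK channel, a potassium channel opened by calcium and voltage, that had enough reads were higher. Kcnmb2 had 60.8, 53.2 and 38.5 normalised reads in WT and 95.1, 84.8 and 80.0 in mKO RGCs (1.72-fold, log2 0.78 ± 0.21, adjusted p = 0.027). Kcnmb4, the neuronal beta subunit, had 65.9, 73.8 and 75.9 in WT and 108, 118 and 121 in mKO (1.61-fold, log2 0.68 ± 0.15, adjusted p = 0.010). The mKO libraries were above the WT libraries for both, and the call was lost in 4 of 6 fits without a library for Kcnmb2 and in 1, without mKO RGC library B, for Kcnmb4. The BK pore gene Kcnma1 was not called, with 577, 637 and 296 normalised reads in WT and 638, 579 and 698 in mKO RGCs.

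No gene was called among the 10 leak channels of the Kcnk family that were tested (0 at an unadjusted p under 0.05), the 9 modifier subunits (1), the 8 auxiliary subunits (2), the 4 KCNQ subunits (2) and the 7 Cacng genes (6). Of all 111 tested channel genes, 40 were at an unadjusted p under 0.05 by limma. The share of all genes at that level is not given here, so these counts have no baseline. Kcnq3 had 1350.1, 1563 and 790.1 normalised reads in WT RGCs and 1826, 1665 and 1809.6 in mKO RGCs, which were apart without a call (log2 0.57 ± 0.23, adjusted p = 0.091). Kcna1 and Kcna2 overlapped between the genotypes.

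**Figure D2:**
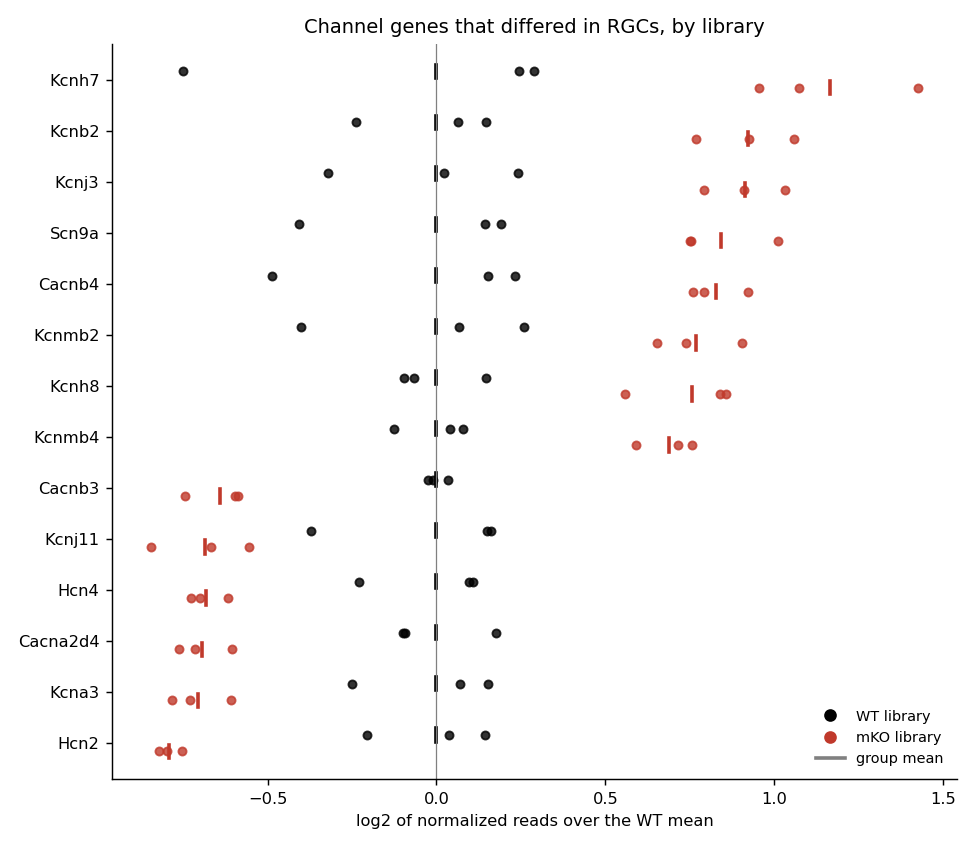
Normalised reads of each library for 14 channel genes called in RGCs, as log2 of the value over the WT mean (x axis), with 3 WT libraries in black, 3 mKO libraries in red and a bar at each group mean. The groups do not overlap for any of the 14 genes, and the lowest WT point of Kcnh7, Scn9a and Cacnb4 is library C.

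The raised and lowered channel genes differed in base composition. The 8 raised genes had transcripts (the longest annotated one of each gene) with 39.3% to 45.9% GC, and the 7 lowered genes 52.6% to 65.4% GC. Across the 111 tested channel genes the Spearman correlation between the log2 fold change and GC was -0.76, and across 15185 genes of the whole table it was -0.63. These are correlations across genes of the same 6 libraries, which share depth and base composition, and genes are not independent replicates. Of 22 channel genes under 45% GC, 19 had a log2 fold change above 0, with a median of 0.57 (0.37 for all genes of that band), and of 38 over 55% GC, 35 were below 0, with a median of -0.41 (-0.40 for all genes). In the middle band of 51 genes, 26 were above and 25 below 0, with a median of 0.0040 (-0.01 for all genes). The promoter windows did not divide in this way, with 47.7% to 79.0% GC in the raised genes and 59.7% to 75.0% in the lowered genes.

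After removal of each library's trends with GC and with reads per base, no channel gene was called higher by limma (1.41% of all genes were) and 2 were lower (1.19% of all genes were). At an unadjusted p under 0.05, 10 were higher and 7 were lower, a level for which the share of all genes is not given here. Among the genes lower in that fit was Cacna2d4 (log2 -0.69, adjusted p = 0.011), which had been called before. The other 14 of the 15 calls were lost. With the GC trend alone removed, 13 of the 15 were lost and Kcnh8 and Kcnj3 were kept. Cacna2d4 was among those lost, by less than 1.5-fold (log2 -0.50, adjusted p = 0.017 by limma). With both trends removed, the Spearman correlation between the log2 fold change and GC across the tested channel genes was -0.28, so some relation with GC remained. The trends moved with the genotypes, so their part in the calls cannot be told apart from that of genotype.

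**Figure D3:**
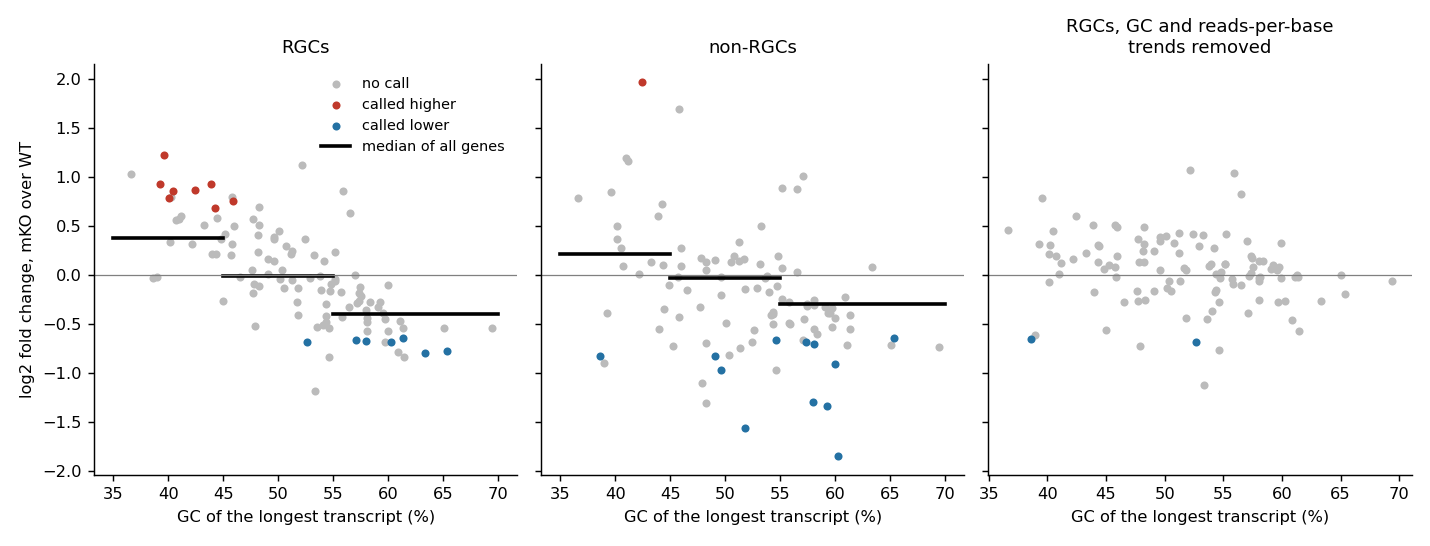
Log2 fold change of mKO over WT (y axis) against the GC content of the longest transcript in percent (x axis) for the channel genes tested in RGCs, in non-RGCs and in RGCs after removal of the GC and reads-per-base trends. Raised genes are red, lowered genes blue and other genes grey, and black lines in the panels without removal give the median of all genes under 45%, from 45% to 55% and over 55% GC. In RGCs all 8 raised genes have under 46% GC and all 7 lowered genes over 52%, while in non-RGCs lowered genes reach from 38.6% to 65.4%.

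In the non-RGC fraction the difference ran mostly one way. Of 102 channel genes tested, 12 (11.8%) were lower in mKO, against 4.22% of all genes, and 1 (0.98%) was higher, against 3.88%. The median log2 fold change was -0.30, against -0.03 over all genes, and 65.7% of the channel genes had a log2 fold change below 0, against 52.4% of all genes. By libraries that did not overlap, 23 genes were below in mKO (19.2% of all genes) and 12 were above (17.5% of all genes). The count of lowered genes rested on the libraries taken. Leaving out 1 library at a time gave 3 to 17 lowered genes, with 3 without WT non-RGC library B, 3 without mKO non-RGC library B and 6 without WT non-RGC library A. Hcn4 and Cacna1h were called in every such fit. Scaling by total reads gave 5 lowered and 5 raised channel genes, against 263 lowered and 1137 raised among all genes. The median of the channel genes was then -0.13, against 0.15 for all genes, and 81.2% of all calls were higher, against 47.9%. Of the T-type and HCN genes below, Cacna1h, Cacna1i and Hcn4 kept their calls in that scaling, and Cacna1g and Hcn2 stayed below 0 without one. With the GC trend removed, 2 channel genes were lower and the median was -0.020, against 0.035 for all genes. The shares of all genes lowered in that fit and in the fits without 1 library are not given here, so these counts have no baseline. With the GC and reads-per-base trends removed, the median was -0.14, against 0.024 for all genes. The shallow mKO library C had the lowest mKO value for 63 of the 102 genes (61.8%, against 42.7% of all genes).

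All 3 T-type calcium channel pores were lower in mKO non-RGCs. Cacna1h (chr17:25374285-25433783, minus strand) had 5353, 5207 and 4722 normalised reads in WT and 2995, 2871 and 2306 in mKO non-RGCs, a 1.88-fold fall (log2 -0.91 ± 0.12, adjusted p = 0.0063). Cacna1i fell 2.54-fold from 186, 232 and 185 to 113, 80.6 and 52.2 (log2 -1.34 ± 0.29, adjusted p = 0.022), and Cacna1g 1.64-fold from 1814, 1568 and 1347 to 1085, 1076 and 747 (log2 -0.71 ± 0.18, adjusted p = 0.034). The genotypes were apart in every library for each of them, and mKO library C was the lowest each time. With the GC trend removed, none of the T-type genes was called by limma (log2 -0.49, -0.95 and -0.37, adjusted p = 0.093, 0.12 and 0.28 for Cacna1h, Cacna1i and Cacna1g), nor with both the GC and reads-per-base trends removed (log2 -0.47, -1.15 and -0.43, adjusted p = 0.14, 0.061 and 0.15). The other 6 calcium channel pores tested were not called. Among them was Cacna1a, with 753, 654 and 521 normalised reads in WT and 395, 520.8 and 350.2 in mKO non-RGCs, which just failed to overlap (adjusted p = 0.073).

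Hcn4 and Hcn2 were lower here too. Hcn4 fell 2.46-fold, from 1138, 1094 and 1114 normalised reads in WT to 603, 474 and 323 in mKO (log2 -1.30 ± 0.21, adjusted p = 0.0091). Hcn2 fell 1.56-fold, from 229, 235 and 239 to 143, 152 and 154 (log2 -0.64 ± 0.17, adjusted p = 0.040). The WT values of Hcn2 and Hcn4 were close together, while the mKO values of Hcn4 spread wider, with library C the lowest. Hcn3 was not called and overlapped between the genotypes. With the GC trend removed neither Hcn4 (log2 -0.96, adjusted p = 0.065) nor Hcn2 (log2 -0.02, adjusted p = 0.96) was called.

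Among the Kv1 to Kv4 pores, Kcna3, Kcnd3 and Kcnc1 were lower. Kcna3 had 143, 142 and 255 in WT and 87.1, 49.9 and 24.0 in mKO, a 3.61-fold fall on the log scale of the test (log2 -1.85 ± 0.43, adjusted p = 0.029). Kcnd3 (Kv4.3) fell from 836, 1023 and 1293 to 785, 553 and 456 (log2 -0.83 ± 0.22, adjusted p = 0.044), and Kcnc1 (Kv3.1) from 628, 576 and 658 to 448, 401 and 315 (log2 -0.69 ± 0.17, adjusted p = 0.032). Of these, Kcnd3 came nearest to an overlap, with its highest mKO value just under its lowest WT value. The microglia markers were low in this fraction, at 1.62 to 17.2 CPM in WT and 7.09 to 15.6 in mKO, with none at 0.

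Kcnh5, an EAG-type channel, and Cacng3 were lower as well. Kcnh5 had 67.7, 74.5 and 55.3 normalised reads in WT and 37.0, 27.8 and 33.9 in mKO (1.97-fold lower, log2 -0.98 ± 0.27, adjusted p = 0.047). Cacng3 had 716, 775 and 773 in WT and 424, 497 and 513 in mKO (1.58-fold lower, log2 -0.66 ± 0.14, adjusted p = 0.021). Kcnh2 and Cacng7 were lower at an adjusted p under 0.05 by less than 1.5-fold (log2 -0.55 and -0.56). The calls of Kcna3, Kcnd3, Kcnc1, Kcnh5 and Cacng3 were lost when the GC trend was taken out, alone or together with the reads-per-base trend.

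Scn9a was the only channel gene called higher in mKO non-RGCs. It had 17.1, 15.5 and 10.4 normalised reads in WT and 90.2, 55.6 and 38.1 in mKO, a 3.90-fold rise (log2 1.96 ± 0.38, adjusted p = 0.017), and without mKO non-RGC library B the call was lost. These values are far under the 1047 to 2801 normalised reads of the RGC libraries. RGC markers moved with it. The 12 RGC markers summed to 513 to 539 CPM in WT and 608 to 814 in mKO non-RGCs, with 8 of 12 called higher, none lower and none at 0. Thy1, the antigen of the beads, had 4.51, 1.94 and 9.38 normalised reads in WT and 67.0, 79.6 and 93.2 in mKO non-RGCs. Their part in the rise of Scn9a was not tested. Kcnn1 was not called, with 384, 399.6 and 155 normalised reads in WT and 539, 547 and 664 in mKO non-RGCs (log2 1.01 ± 0.32, adjusted p = 0.073), although all mKO libraries lay above all WT libraries. Other sodium channel genes of the RGC side, such as Scn1a and Scn3b, were not called in non-RGCs.

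With the GC and reads-per-base trends removed, Scn9a was still higher (log2 1.79, adjusted p = 0.030), the only channel gene so called (0.972% of all genes were), and 3 were lower (0.842% of all genes were), among them Hcn4 (log2 -1.01, adjusted p = 0.043). The relation with GC was looser than in RGCs, with a Spearman correlation of -0.39 across the 102 channel genes and -0.43 across 14497 genes of the table.

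**Figure D4:**
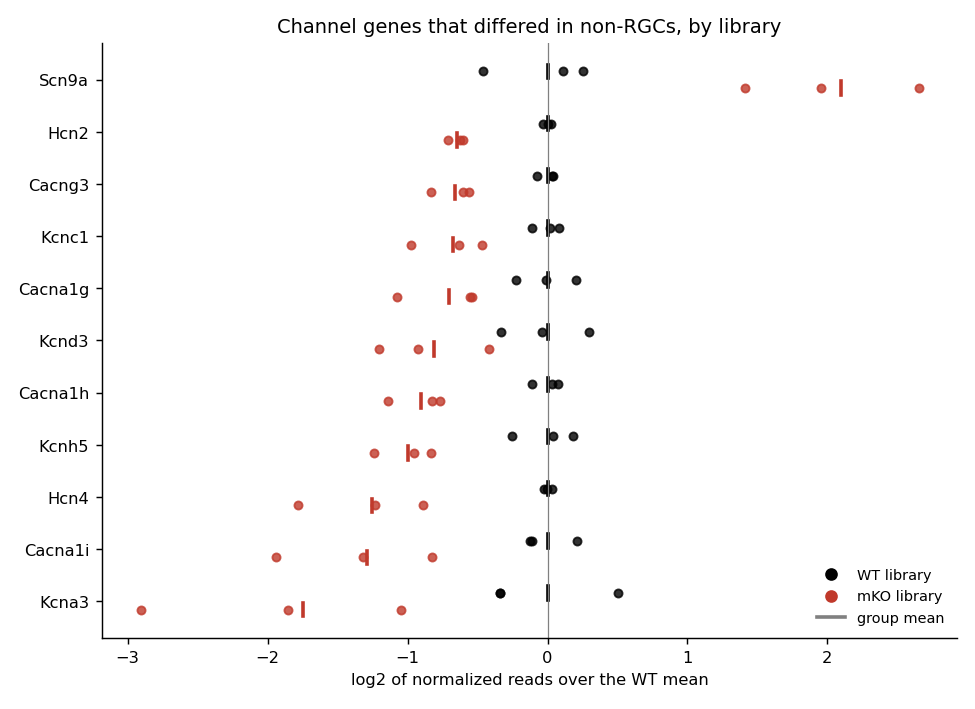
Normalised reads of each library for 11 channel genes called in non-RGCs, as log2 of the value over the WT mean (x axis), with 3 WT libraries in black, 3 mKO libraries in red and a bar at each group mean. The mKO points lie below all WT points for 10 genes and above them for Scn9a, and they spread most for Kcna3.

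The fractions have separate libraries, but the non-RGCs are the cells left after bead capture, so both fractions may come from the same animals and their results are not independent. Of 24 channel genes called in at least 1 fraction, 4 (16.7%) were called the same way in both, Scn9a higher and Hcn2, Hcn4 and Kcna3 lower, against 20.5% of the 2820 genes of the whole tables called in at least 1 fraction. None was called in opposite directions, against 0.106% of those genes. The share called in both was thus near that of all genes, and the log2 fold change went with GC in both fractions. A gene called in 1 fraction only is not thereby shown to differ between them. The test of that difference, an interaction of genotype and fraction over all 12 libraries, called none of 114 channel genes at an adjusted p under 0.05 with limma (0.0969% of all genes were called), with 19 (16.7%) at an unadjusted p under 0.05, against 9.66% of all genes. It treats the fractions as independent. The lowest adjusted p belonged to Kcnb2 (difference of log2 fold changes, RGCs minus non-RGCs, 1.31 ± 0.26, adjusted p = 0.10) and Kcnh5 (1.35 ± 0.32, adjusted p = 0.23). Without mKO non-RGC library A, 3 channel genes were called (1.43% of all genes were), among them Kcnb2 (1.51, adjusted p = 0.016) and Kcnd3 (1.20, adjusted p = 0.043).

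In non-RGCs Kcnb2 had 133, 161 and 165 normalised reads in WT and 152, 104 and 98.9 in mKO, which overlap, while in RGCs it rose.

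**Figure D5:**
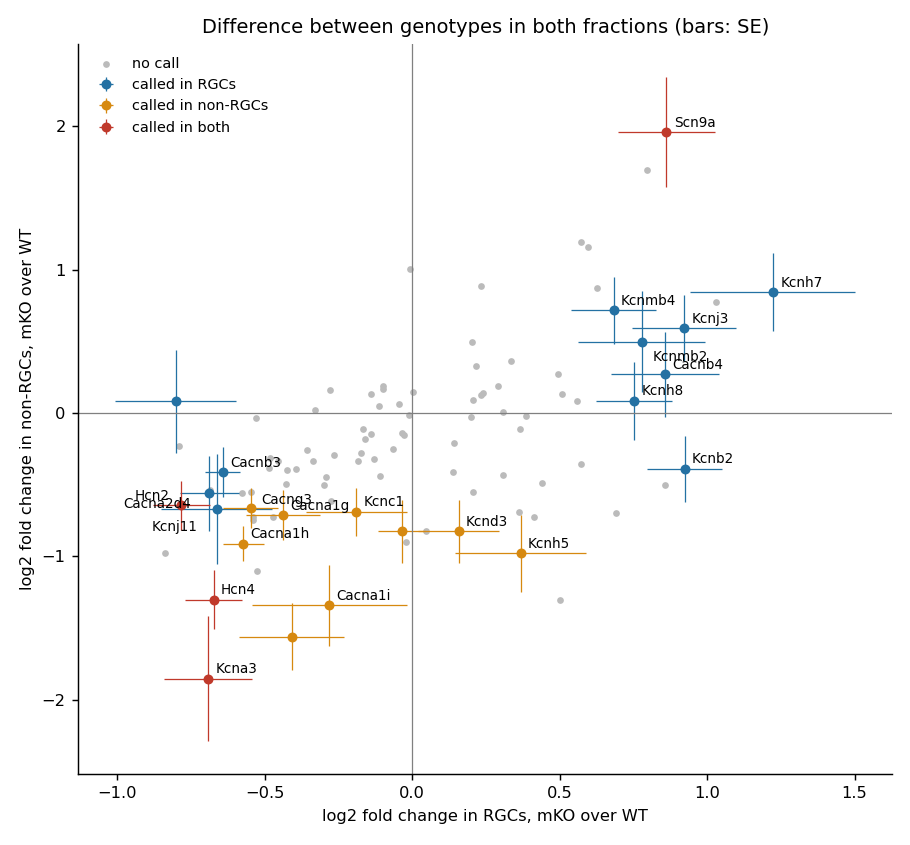
Log2 fold change of mKO over WT in RGCs (x axis) and non-RGCs (y axis) for the 99 channel genes tested in both, with SE bars for those called in RGCs (blue), non-RGCs (orange) or both (red); not every called gene is named. Scn9a lies at 0.86 and 1.96, Hcn4 at -0.67 and -1.30, and Kcnb2 is raised in RGCs and below 0 in non-RGCs.

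Of 30 genes whose products anchor, traffic or regulate these channels (ankyrins, neurofascin, contactins, Fgf11 to Fgf14, Dpp6, Dpp10, Lgi and Adam proteins, the Nalcn complex, RGK and Stac proteins, and REST with its corepressors), all were tested in both fractions and 1 was called in each. It was Rcor2, a corepressor that works with REST, the repressor of many channel genes in cells outside the nervous system. Rcor2 had 1804, 1777 and 2504 normalised reads in WT and 1142, 1359 and 1185 in mKO RGCs (log2 -0.71 ± 0.14, adjusted p = 0.0082). In non-RGCs it had 2549.8, 2706 and 2846 in WT and 1372, 1656 and 1999.6 in mKO (log2 -0.70 ± 0.14, adjusted p = 0.021). The genotypes did not overlap in either fraction. With the GC and reads-per-base trends removed it was called in neither fraction (log2 -0.10, adjusted p = 0.67 in RGCs, and log2 -0.22, adjusted p = 0.18 in non-RGCs, by limma), nor was any other of the 30 genes. The 30 genes had a median log2 fold change of 0.04 in RGCs and -0.11 in non-RGCs. Rest itself was not called.

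The library kit does not mark strand, so reads of a gene and of an antisense partner cannot be told apart. Among the called genes the exons of Kcnj3 shared 31.1% of their bases with the antisense gene Gm26794, those of Kcnmb4 20.8% with Kcnmb4os2 and 10.7% with Kcnmb4os1, and those of Cacnb4 15.99% with A430018G15Rik, while the shares of Kcnh7, Scn9a, Cacna1h and Kcnd3 were 4.57% or less. Of the uncalled genes named above, Hcn3 shared 17.1% with Pklr on the opposite strand.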

How the data were processed

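RNA was measured in 12 libraries of Thy-1 bead-purified RGCs and the remaining retinal cells, 3 per genotype and fraction. The authors aligned single-end reads of poly-A NEBNext Ultra libraries, which do not mark strand, to mm10 (Ensembl annotation) with STAR 2.3.1z4, removed duplicates, counted primary alignments per gene with featureCounts and normalised them with DESeq, and all libraries ran in 1 lane. The deposited tables, 1 per fraction, hold the mean normalised signal (reads divided by size factors) of each genotype and the authors' own fold changes and p-values, which were not used. Whole reads per library were recovered from the digits of these means, with a unique solution for 100% of genes in each group. A size factor belongs to a library, but no replicate number could be attached to it. p-values measure the spread between the 3 RNA extractions of a group.

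Genes with a mean of at least 10 normalised reads in either genotype were compared with the trended test of limma 3.58.1 (R 4.3.3), two-sided, on log2(normalised reads + 1), which understates the change of low genes. Calls required a Benjamini-Hochberg adjusted p under 0.05 over all genes tested and a 1.5-fold change, and the interaction an adjusted p under 0.05. RPKM used GENCODE M21 exon lengths on GRCm38. The trends were taken from genes with a mean of at least 50 normalised reads, of which 95.1% had a known GC. The GC trend alone was removed with lowess (share 0.3). The GC and reads-per-base trends were removed together by subtracting the mean deviation of the 300 genes nearest in GC and reads per base. Genes without a known GC were left uncorrected. Promoters came from RefSeq (GRCm38.p6). Named were all called channel genes, the 2 highest of each role group in WT RGCs, and a list of well-known subunits (such as Scn1a, Cacna1a, Kcna1 and Hcn2). Some channel genes that the rule names are not reported here. Kcna5, Kcnj10, Kcnma1, Cacng5, Scn4a and the genes changed by less than 1.5-fold were added after their values were seen. The channel genes, partner genes and marker lists were chosen with earlier results of these data known. Scripts were tested on simulated data. The alternatives are given in the closing section.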

Additional observations from a re-analysis of the deposited data

How the results depend on the processing

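No paired analysis was possible because the recovered libraries carry no replicate number. In RGCs, 8 higher and 7 lower channel genes became 15 and 2 with scaling to total reads, 2 and 0 with the GC trend removed, and 0 and 2 with the GC and reads-per-base trends removed, and 19 were lower at any fold change. Of all genes, 1272 higher and 886 lower became 1975 and 373 with total reads, and 227 and 191 with both trends removed. Leaving out 1 library gave 6 to 12 higher and 6 to 19 lower channel genes (19 without WT RGC library C) and medians from -0.19 to 0.0028. In non-RGCs, 1 higher gene became 2 with every gene with reads or upper-quartile scaling, 5 with total reads, 3 without the mean-variance trend and 9 with the study's call (unadjusted p under 0.05 and 1.5-fold). The 12 lower genes became 5, 7, 2 and 3 with total reads, no mean-variance trend, the GC trend and both trends removed, and 21 with the study's call. Of all genes, 595 higher and 647 lower became 1137 and 263 with total reads, and 149 and 129 with both trends removed. Leaving out 1 library gave 0 to 2 higher and 3 to 17 lower channel genes and medians from -0.32 to -0.20. The median of -0.30 became -0.13 with total reads and -0.020 with the GC trend removed. The interaction called 0 genes, 0 to 3 without 1 library (3 without mKO non-RGC library A) and 17 with the study's call. Leaving out a WT library, chosen after seeing the data, gave 80 to 85 genes above and 14 to 19 below in WT RGCs. Counts over all genes are given only for some of the alternatives, and the causes of these shifts were not tested. No called gene changed sign, and of 1227 values of uncalled named genes under the alternatives, 31 became called. Genes under a mean of 10 normalised reads were not compared.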
